A study of Mus musculus with 8 samples.

Results

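The Myc family and its partners are a small network of transcription factors, and 9 of its genes were followed in sorted nephron progenitors of the mouse kidney with different doses of Smo: Myc, Mycn, Mycl, Max, Mxd1, Mxd3, Mxd4, Mxi1 and Mnt. They were chosen by gene symbol, with earlier results of these data known, from a table of 24539 genes. All 9 were found and passed the filter on low counts. Nephron progenitors, which renew themselves and form the nephrons, were obtained at E18.5 by cell sorting for Six2GFPcre, whose product in these cells is both fluorescent and a Cre recombinase, and their polyadenylated RNA was sequenced. Smo is the membrane protein that passes on the Hedgehog signal, and the series title and design ask what this signal does in these cells. All groups, the controls included, carried Six2GFPcre and had 2 libraries each. The KO-labelled group was Smo c/c, with 2 conditional alleles that Cre removes, and the Het-labelled group was Smo c/+. The WT-labelled group was Smo +/+, and the SmoM2-labelled group was Smo +/+ with Rosa26 SmoM2/+, an allele for an active form of Smo. The labels do not say whether a library came from 1 embryo or several, so p-values measure the spread between libraries.

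Myc, Mycn and Mycl proteins bind DNA only as pairs with Max and mostly raise the transcription of genes for growth, ribosome production and cell division. Mxd1, Mxd3, Mxd4, Mxi1 (also known as Mxd2) and Mnt also pair with Max, bind the same E-box sequence and recruit repressors, so they oppose Myc. In the developing kidney Mycn is known as a gene of progenitors, Myc is known to act with beta-catenin in nephron progenitors, and Mycn is a known Hedgehog target in cerebellar precursors.

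The part of the promoter before the transcription start is shown for 3 of the 4 members that passed the test in KO- against WT-labelled libraries. These are Mycn, which was higher, and Mxd4 and Mnt, which were lower. Max, which was also higher, is not shown, and its window, like that of Mycn, held no E-box. Sequences are from RefSeq on GRCm38.p6, 250 bases before the start on the gene's strand, and capitals mark the E-box CACGTG to which Max pairs bind. The Mycn window is chr12:12941837-12942086 on the minus strand, the Mxd4 window is chr5:34187711-34187960 on the minus strand, and the Mnt window is chr11:74830674-74830923 on the plus strand.
Mycn: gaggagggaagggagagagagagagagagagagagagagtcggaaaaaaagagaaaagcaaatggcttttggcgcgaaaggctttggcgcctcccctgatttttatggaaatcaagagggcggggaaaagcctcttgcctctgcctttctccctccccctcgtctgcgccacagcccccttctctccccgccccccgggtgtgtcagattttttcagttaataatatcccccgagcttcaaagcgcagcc
Mxd4: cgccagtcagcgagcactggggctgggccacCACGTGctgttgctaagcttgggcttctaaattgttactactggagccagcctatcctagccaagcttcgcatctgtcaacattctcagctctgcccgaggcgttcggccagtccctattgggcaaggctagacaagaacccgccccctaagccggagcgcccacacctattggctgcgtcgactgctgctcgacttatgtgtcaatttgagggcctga
Mnt: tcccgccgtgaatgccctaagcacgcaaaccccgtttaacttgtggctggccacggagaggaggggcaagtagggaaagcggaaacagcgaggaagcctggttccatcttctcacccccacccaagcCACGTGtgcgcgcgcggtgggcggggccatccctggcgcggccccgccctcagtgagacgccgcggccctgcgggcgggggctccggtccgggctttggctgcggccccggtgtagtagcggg

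Of the 8 members with a promoter entry, Mxd4 and Mnt held the E-box, which reads the same on both strands. Its first base lay at -219 from the start in Mxd4 and at -123 in Mnt. Among all genes with an entry, 6.86% had it in such a window. The Gli motif GACCACCCA, searched on both strands, was in no member's window and in 0.255% of all genes. The windows are rich in G and C, with a median of 63.6% over the members' 10 windows and 52.4% over all windows. A match or its absence describes these letters only.

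Library totals ranged from 4422305 to 10305398 counts, with the KO-labelled libraries the shallowest at 4422305 and 4442697. The level of Smo did not follow the labels in full. It was at 12.1 ± 1.39 CPM (counts scaled to a common library size, SD, n = 2) in KO-, 19.2 ± 6.72 in Het-, 369 ± 8.43 in WT- and 616 ± 17.1 in SmoM2-labelled libraries, so the Het-labelled level was close to the KO-labelled one. Libraries are therefore named by their labels. The 10 nephron progenitor markers had counts in every library. They summed to between 4482 and 5899 CPM under the KO and Het labels, against 3786 to 4260 CPM under the other labels. Of these 10, 3 were called higher and 1 lower in KO-, and 5 higher and none lower in Het- than in WT-labelled libraries. Over all tested genes 11.6% were higher and 11.4% lower in KO-, and 13.1% and 12.2% in Het-labelled libraries. Endothelial markers summed to at most 3.39 CPM and immune markers to at most 48.1 CPM. Erythroid markers summed to between 13.7 and 45.1 CPM under the KO and Het labels, against 2.77 to 7.87 CPM under the other labels, with 3 of 4 tested called higher in KO- and 2 in Het- than in WT-labelled libraries. Ureteric markers summed to between 5.26 and 9.96 CPM under the KO and Het labels, against 17.2 to 46.2 CPM under the other labels. The 7 stroma markers summed to between 76.1 and 651.5 CPM, and the KO-labelled libraries themselves differed (605.9 and 76.1 CPM). The part of these markers in the results was not tested. The Hedgehog target genes Gli1, Ptch1 and Hhip were each called lower in KO- and in Het- than in WT-labelled libraries and higher in SmoM2-labelled ones (edgeR). Counts of Y-linked genes were present in both libraries of the KO-labelled group and in neither of the Het-labelled group. In the WT- and SmoM2-labelled groups they were present in replicate 1 but not replicate 2. KO- against Het-labelled libraries therefore cannot separate label from sex. Fewer cells of a type and less RNA per cell cannot be told apart in such bulk libraries.

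**Figure D1:**
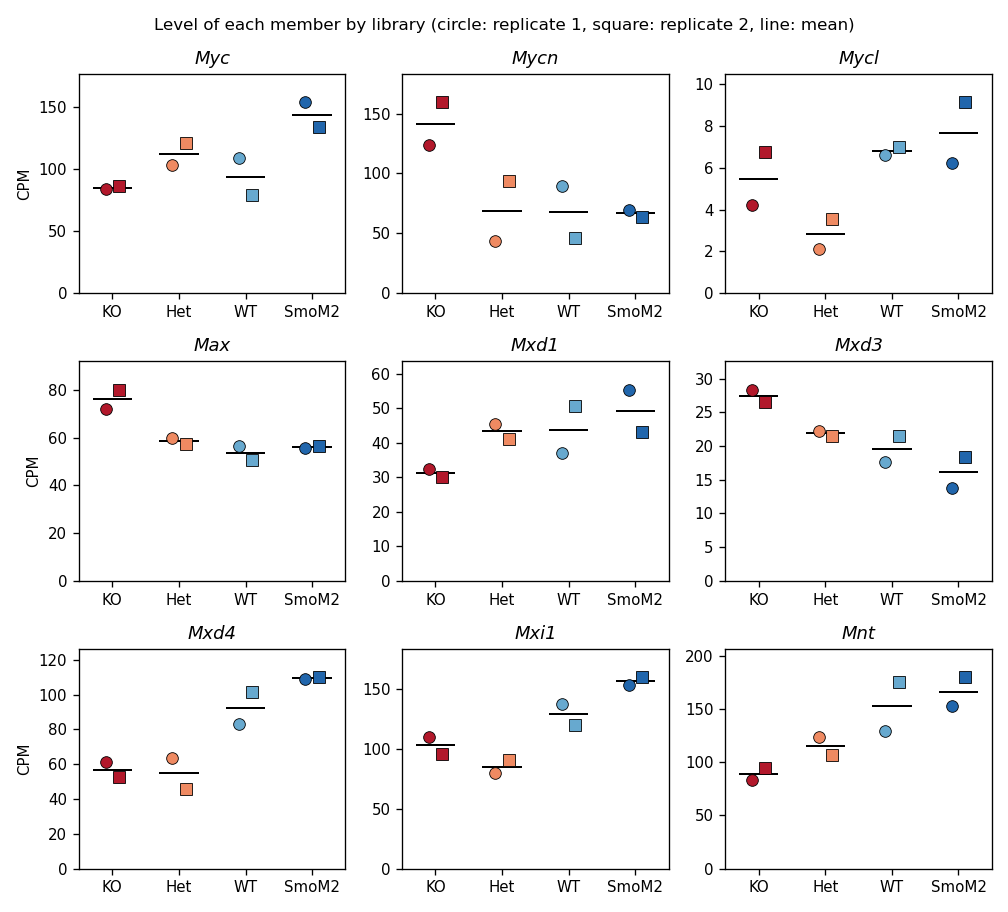
CPM of the 9 members (vertical axes, from 0) in each library, by labelled group, with circles for replicate 1, squares for replicate 2 and a line for the mean of 2 libraries. Mycn and Max are highest in both KO-labelled libraries, Myc is highest in both SmoM2-labelled libraries, and Mxd4 and Mxi1 are lower in all KO- and Het-labelled libraries than in the others.

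On the authors' RPKM scale, which divides by gene length and so allows genes to be compared, Myc and Mycn were the main Myc paralogues and Mxd4 the most abundant antagonist in WT-labelled progenitors. Myc was at 32.4 ± 8.59 RPKM and Mycn at 21.6 ± 10.7 RPKM (SD, n = 2), while Mycl was at 1.52 ± 0.0162 RPKM. Max was at 21.9 ± 2.67 RPKM. Mxd4 was at 64.0 ± 5.89 RPKM, above 96.6% of the genes in the table. Mnt, Mxi1, Mxd3 and Mxd1 followed at 27.2 ± 4.48, 18.8 ± 2.69, 12.3 ± 1.13 and 7.68 ± 1.32 RPKM.

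Over the 4 groups together, 8 of the 9 members differed (edgeR quasi-likelihood test, Benjamini-Hochberg adjusted p under 0.05), against 41.0% of all 13459 tested genes. Mxd1 was the exception (edgeR adjusted p 0.0627). Mxd4, Mxi1 and Mnt had the smallest adjusted p-values, at 0.00164, 0.00186 and 0.00501 by edgeR, and these 3 passed in all 16 alternatives run. Myc passed in 15, all but the fit without SmoM2-labelled replicate 1 (adjusted p 0.0546), Mycl in 13, Mycn in 9, Mxd3 in 8 and Max in 7 of them.

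Mycn, a Myc paralogue that lies at chromosome 12, 12936093 to 12941914 (GRCm38, minus strand), was the member with the largest rise in the KO-labelled libraries. It was at 123.9 and 159 CPM in the KO-labelled libraries, replicate 1 first. The Het-labelled libraries had 43.4 and 94.0 CPM, the WT-labelled 89.4 and 46.0 CPM, and the SmoM2-labelled 69.8 and 64.1 CPM. Both KO-labelled libraries were above all 6 others, whose groups overlapped each other. Mycn rose 2.09-fold from WT- to KO-labelled libraries (log2 1.06, SE 0.33, edgeR adjusted p 0.0389) and was 2.12-fold higher in KO- than in SmoM2-labelled libraries (edgeR adjusted p 0.0284). The change against Het-labelled libraries did not pass (log2 1.05, SE 0.34, edgeR adjusted p 0.0696). It kept its sign in all 17 alternatives and passed in 5 of them. Het- and SmoM2-labelled libraries differed from WT-labelled ones by 0.01 (SE 0.33) and -0.02 (SE 0.33) on the log2 scale.

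The rise of Mycn depended on single libraries and on the test. Against WT-labelled libraries it was 0.63 on the log2 scale without WT-labelled replicate 2 (edgeR adjusted p 0.203) and 0.86 without KO-labelled replicate 2 (adjusted p 0.175), and it did not pass without KO-labelled replicate 1 (1.23, adjusted p 0.0881). DESeq2 gave 1.04 with an adjusted p of 0.133. EdgeR with the stress score as a covariate gave 1.04 (adjusted p 0.196) and with length trends removed 0.98 (adjusted p 0.0637). With sex as a covariate, read from Y-linked counts against those of Xist, edgeR gave 0.85 (adjusted p 0.0861). The sex effect in such fits is estimated within the WT- and SmoM2-labelled pairs only, where it equals replicate number. The rise against SmoM2-labelled libraries did not pass without any 1 of the 4 libraries compared (edgeR adjusted p 0.0618 to 0.145) or by DESeq2 (adjusted p 0.109), and with sex as a covariate it was 0.81 (adjusted p 0.102). With Y-linked counts present, Mycn stood at 123.9 and 159 CPM under the KO label, 89.4 CPM under the WT label and 69.8 CPM under the SmoM2 label. Markers of early nephrons were high in the KO-labelled libraries too: the summed level of Wnt4, Lhx1, Pax8, Fgf8, Jag1, Ccnd1 and Lef1 was 1324 and 1616 CPM in the KO-labelled libraries and between 430.4 and 727 CPM in the other 6. Of these 7 genes 6 were called higher in KO- than in WT-labelled libraries and none lower, and Lhx1 was at 92.2 ± 42.5 CPM in KO- and 7.77 ± 4.40 CPM in WT-labelled libraries. Within the WT- and the SmoM2-labelled pairs the library with more Mycn had less of these markers (470.5 against 650.7 and 430.4 against 593.4 CPM). Within the KO- and the Het-labelled pairs the library with more Mycn had more of these markers (1616 against 1324 and 727 against 487 CPM). Their part in the level of Mycn was not tested.

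Myc, at chromosome 15, 61985391 to 61990374 (plus strand), had another pattern, highest in the SmoM2-labelled libraries. Its level was 84.1 and 86.4 CPM in KO-labelled replicates 1 and 2 and 103.5 and 121.0 CPM in the Het-labelled pair. The WT-labelled pair had 108.9 and 79.6 CPM and the SmoM2-labelled pair 154 and 134 CPM. Both SmoM2-labelled libraries were above all others, and the KO- and Het-labelled libraries each overlapped the WT-labelled range. Myc was 1.69-fold lower in KO- than in SmoM2-labelled libraries (log2 -0.76, SE 0.16, edgeR adjusted p 0.00518), a call that held in all 17 alternatives. Between SmoM2- and WT-labelled libraries the log2 difference was 0.61 (SE 0.16, edgeR adjusted p 0.220), with an unadjusted p of 0.00237, and it passed only when genes with low counts were kept in the test (adjusted p 0.00299). KO- against WT-labelled libraries gave -0.15 (SE 0.16, edgeR adjusted p 0.541). Myc is also an immediate early gene, and 9 other genes of the dissociation response summed to 7873 and 7821 CPM in the Het-labelled libraries and to between 2801 and 5827 CPM in the other libraries. Their part in the level of Myc was not tested.

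**Figure D2:**
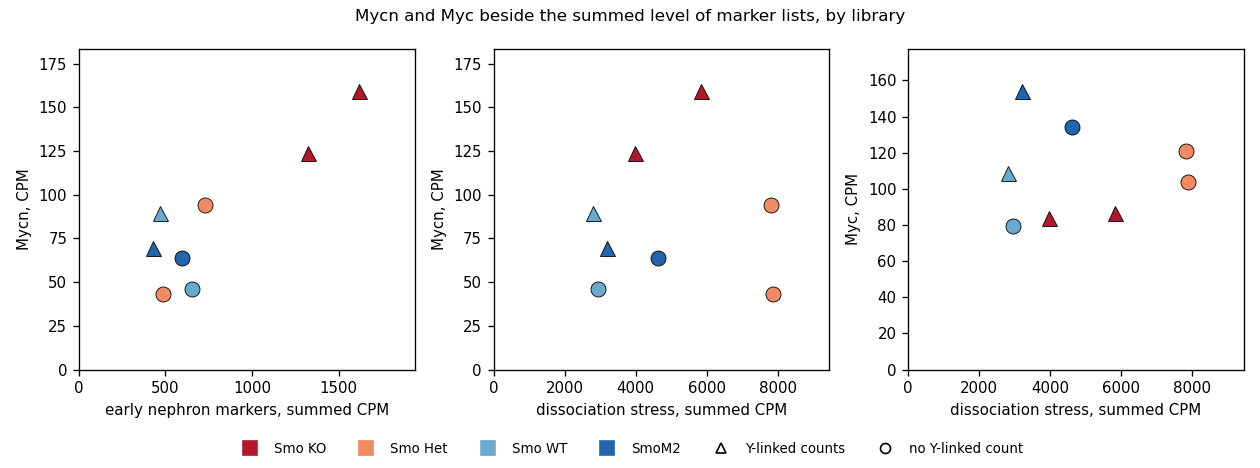
Mycn (left and middle) or Myc (right) in CPM on the vertical axis against the summed CPM of the early nephron markers (left) or the dissociation stress genes (middle and right), 1 point per library, coloured by labelled group, triangles for libraries with Y-linked counts and circles for those without. The KO-labelled libraries stand alone at high Mycn and at 1324 and 1616 summed CPM of early nephron markers, while the Het-labelled libraries, highest in stress genes, lie in the middle of the Myc range.

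The balance between the paralogues, which does not depend on the scaling of a library, was reversed in the KO-labelled libraries. Mycn divided by Myc, in RPKM, was 1.36 and 1.71 in the KO-labelled libraries. It was 0.388 and 0.718 in the Het-, 0.759 and 0.534 in the WT-, and 0.418 and 0.441 in the SmoM2-labelled libraries. Mycn was thus above Myc in both KO-labelled libraries and below it in all 6 others. Mycn made up 59.4 ± 3.54% (SD, n = 2) of the summed RPKM of the 3 paralogues in KO-labelled and 37.9 ± 6.10% in WT-labelled libraries. The sum itself overlapped between groups, with 71.1 and 85.5 RPKM in KO-labelled and 69.2 and 41.9 RPKM in WT-labelled libraries. No test was run on these ratios: for a single value the exact permutation test (two-sided) was the one to be used, and in groups this small it cannot go below 0.333.

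**Figure D3:**
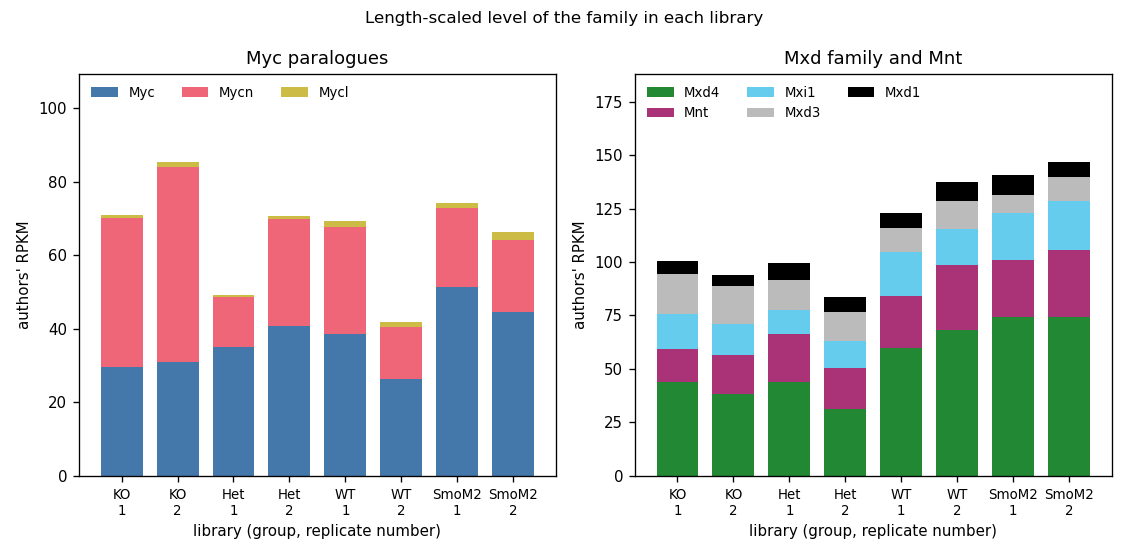
Stacked bars of the authors' RPKM values (vertical axes) in each of the 8 libraries for the Myc paralogues (left) and for the Mxd family with Mnt (right). Mycn is the larger part of the left bars in both KO-labelled libraries, and the right bars are lower in the KO- and Het-labelled libraries (83.8 to 100.3 RPKM) than in the WT- and SmoM2-labelled ones (122.8 to 146.9 RPKM).

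Mycl, the third paralogue, at chromosome 4, 122995652 to 123002485 (plus strand), was scarce and fell in the Het-labelled libraries. Its raw counts were 19 and 31 in the KO-, 16 and 21 in the Het-, 71 and 64 in the WT- and 61 and 79 in the SmoM2-labelled libraries. In CPM these are 4.20 and 6.74, 2.14 and 3.56, 6.61 and 6.96, and 6.23 and 9.12. Both Het-labelled libraries were below all others. Mycl was 2.41-fold lower in Het- than in WT-labelled libraries, a log2 change of -1.27 (SE 0.37, edgeR adjusted p 0.0277), and 2.72-fold lower than in SmoM2-labelled ones (edgeR adjusted p 0.0118). The call against WT-labelled libraries was lost without Het-labelled replicate 1 (log2 -0.96, edgeR adjusted p 0.186), without WT-labelled replicate 1 (adjusted p 0.0620) and without WT-labelled replicate 2 (adjusted p 0.0746). With a stress score as a covariate the change was -2.54 (edgeR adjusted p 0.129). The call against SmoM2-labelled libraries was lost without Het-labelled replicate 1 (edgeR adjusted p 0.0974) and without SmoM2-labelled replicate 2 (adjusted p 0.0809).

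Max, the shared partner of the other members, lies at chromosome 12, 76937269 to 76962201 (minus strand) and rose modestly in the KO-labelled libraries. It was at 72.1 and 80.0 CPM in KO-labelled replicates 1 and 2 and 59.7 and 57.4 CPM in the Het-labelled pair. The WT-labelled pair had 56.3 and 50.7 CPM and the SmoM2-labelled pair 55.8 and 56.5 CPM. The KO-labelled libraries were above all others, and the other 6 spanned only 50.7 to 59.7 CPM. The rise was 1.42-fold against WT-labelled (log2 0.51, SE 0.13, edgeR adjusted p 0.0157) and 1.36-fold against SmoM2-labelled libraries (edgeR adjusted p 0.0210). Removing the trend of each library over gene length lowered these changes to 0.36 (edgeR adjusted p 0.0791) and 0.27 (adjusted p 0.145). Without KO-labelled replicate 2 and without WT-labelled replicate 2 the first was 0.42 (adjusted p 0.0691) and 0.40 (adjusted p 0.127), with the stress score as a covariate it was 0.50 (adjusted p 0.117), and the second passed in 9 of 17 alternatives.

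Among the antagonists, Mxd4 was called lower than in WT-labelled libraries in both the KO- and the Het-labelled group, Mnt only in the former and Mxi1 only in the latter. Whether these calls differ between the 2 groups was tested only in KO- against Het-labelled libraries, where none of the 3 passed. Not passing there does not show the 2 groups to be alike. Label and sex cannot be told apart in that comparison. Mxd4, at chromosome 5, 34173883 to 34187720 (minus strand), was at 61.3 and 52.6 CPM in the KO- and 63.8 and 46.0 CPM in the Het-labelled libraries. It was at 83.2 and 101.3 CPM in the WT- and 109.3 and 109.9 CPM in the SmoM2-labelled libraries. All 4 KO- and Het-labelled libraries were below the 4 others, and KO- and Het-labelled libraries overlapped. Mxd4 fell 1.62-fold from WT- to KO-labelled (log2 -0.69, SE 0.17, edgeR adjusted p 0.0148) and 1.67-fold from WT- to Het-labelled libraries (log2 -0.74, SE 0.17, edgeR adjusted p 0.00891). Both calls were lost without WT-labelled replicate 2 (log2 -0.58 and -0.62, edgeR adjusted p 0.0695 and 0.0514). They were also lost with the stress score as a covariate, where the changes were -0.64 and -0.62 (adjusted p 0.112 and 0.463). The first was lost without KO-labelled replicate 2 (adjusted p 0.0780) and the second without Het-labelled replicate 2 (adjusted p 0.0899). Against SmoM2-labelled libraries the falls were 1.92-fold in KO-labelled (edgeR adjusted p 0.00210) and 1.99-fold in Het-labelled libraries (adjusted p 0.00130), and these passed in all 17 alternatives. An antisense gene, Gm42846, overlaps 514 exonic bases of Mxd4 in GENCODE M21 and was not analysed here. The strand setting of the counting is not given in the sources used here, so reads of the 2 genes cannot be told apart in that stretch.

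Mxi1, at chromosome 19, 53310518 to 53375810 (plus strand), was lowest in the Het-labelled libraries. It was at 109.7 and 95.5 CPM in KO-labelled replicates 1 and 2 and 79.5 and 90.4 CPM in the Het-labelled pair. The WT-labelled pair had 137 and 119.8 CPM and the SmoM2-labelled pair 153 and 159 CPM. None of the 4 groups overlapped. Mxi1 fell 1.51-fold from WT- to Het-labelled libraries (log2 -0.60, SE 0.13, edgeR adjusted p 0.00817). That call was lost without Het-labelled replicate 1 (log2 -0.54, edgeR adjusted p 0.0716) and with the stress score as a covariate (log2 -0.58, adjusted p 0.399). The change from WT- to KO-labelled libraries did not pass (log2 -0.33, SE 0.13, edgeR adjusted p 0.0972). Relative to SmoM2-labelled libraries Mxi1 was 1.84-fold lower in Het-labelled (edgeR adjusted p 0.000684) and 1.52-fold lower in KO-labelled libraries (adjusted p 0.00584). With length trends removed the second was -0.37 on the log2 scale (adjusted p 0.0637) and no longer passed. Mxi1 shares 194 exonic bases with Gm10197 on the opposite strand, not analysed here.

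Mnt, the most widely expressed of the antagonists in mammals, lies at chromosome 11, 74830920 to 74845725 (plus strand) and rose step by step in its group means from KO- to SmoM2-labelled libraries. Its level was 83.2 and 95.1 CPM in KO-labelled replicates 1 and 2 and 124.3 and 106.7 CPM in the Het-labelled pair. The WT-labelled pair had 130.1 and 176 CPM and the SmoM2-labelled pair 153 and 180.1 CPM. The KO-labelled libraries were below the Het-labelled ones and these below the rest, while WT- and SmoM2-labelled libraries overlapped. Mnt fell 1.71-fold from WT- to KO-labelled libraries (log2 -0.78, SE 0.17, edgeR adjusted p 0.00783), a call lost without KO-labelled replicate 1 (log2 -0.69, adjusted p 0.0681). It was 1.87-fold lower in KO- than in SmoM2-labelled libraries (edgeR adjusted p 0.00232), in all 17 alternatives. From WT- to Het-labelled libraries the change was -0.40 (SE 0.16, edgeR adjusted p 0.0894), and between neighbouring groups of this order no step passed. Mnt was 1.44-fold lower in Het- than in SmoM2-labelled libraries (edgeR adjusted p 0.0268), a call lost without Het-labelled replicate 2 (adjusted p 0.162) and without SmoM2-labelled replicate 2 (adjusted p 0.139) and with length trends removed (adjusted p 0.0551).

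Mxd1 and Mxd3 differed between the ends of the labelled range, in opposite directions. Mxd1, which is known to rise as cells leave the cell cycle to differentiate, lies at chromosome 6, 86647042 to 86669161 (minus strand). It was at 32.3 and 30.0 CPM in KO-labelled replicates 1 and 2 and 45.4 and 41.2 CPM in the Het-labelled pair. The WT-labelled pair had 37.1 and 50.6 CPM and the SmoM2-labelled pair 55.4 and 43.1 CPM. Both KO-labelled libraries were below all others, which overlapped. Mxd1 was 1.58-fold lower in KO- than in SmoM2-labelled libraries (log2 -0.66, SE 0.19, edgeR adjusted p 0.0193), and this was lost without either KO-labelled replicate (adjusted p 0.0685 and 0.0875), without SmoM2-labelled replicate 1 (0.113) and with length trends removed (0.0619). KO- against WT-labelled libraries gave -0.49 (SE 0.19, edgeR adjusted p 0.0788).

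Mxd3, known for its expression in dividing progenitors, lies at chromosome 13, 55325168 to 55329823 (minus strand) and was highest in the KO-labelled libraries. It was at 28.3 and 26.5 CPM in KO-labelled replicates 1 and 2 and 22.2 and 21.6 CPM in the Het-labelled pair. The WT-labelled pair had 17.6 and 21.4 CPM and the SmoM2-labelled pair 13.8 and 18.4 CPM. The KO-labelled libraries were above the Het-labelled ones and these above the rest, while WT- and SmoM2-labelled libraries overlapped. Mxd3 was 1.71-fold higher in KO- than in SmoM2-labelled libraries (log2 0.77, SE 0.20, edgeR adjusted p 0.0137). This dropped to 0.53 without SmoM2-labelled replicate 1 (edgeR adjusted p 0.138) and to 0.48 with length trends removed (adjusted p 0.0916), and it did not pass without KO-labelled replicate 1 (adjusted p 0.0712). Against WT-labelled libraries the change was 0.49 (SE 0.20, edgeR adjusted p 0.0942). Mxd3 shares 105 exonic bases with Prelid1 on the opposite strand, which had 9183 counts over all libraries, so part of its count is uncertain.

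**Figure D4:**
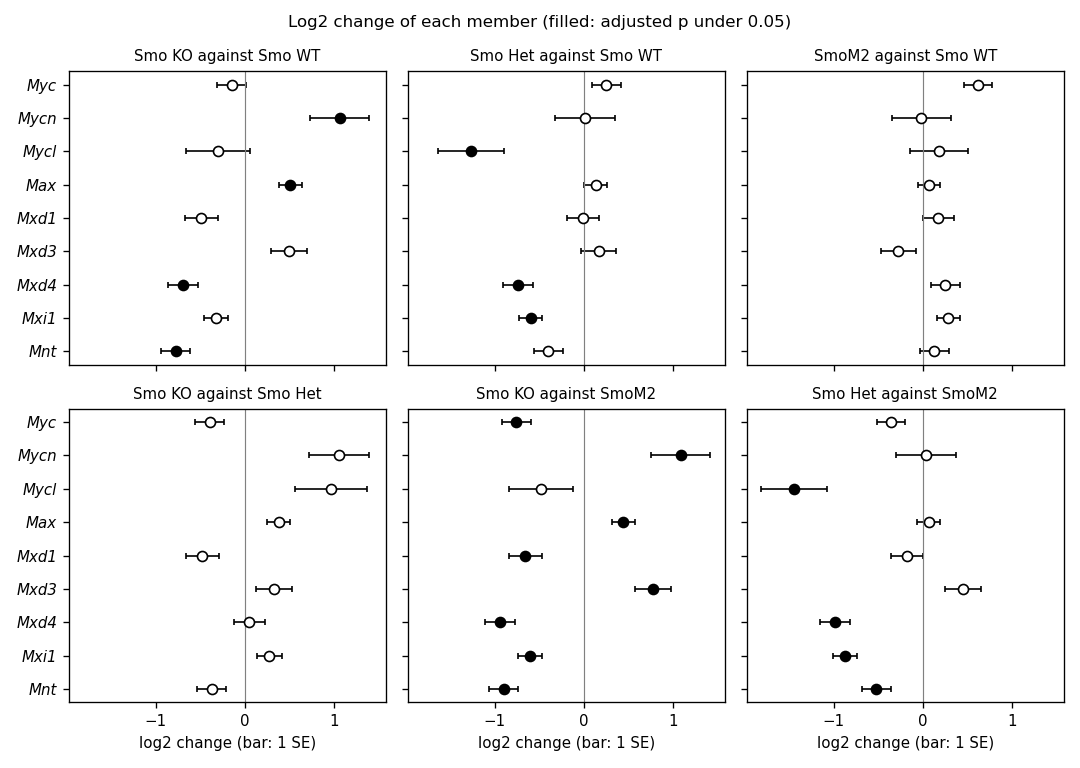
EdgeR log2 change (horizontal axis, bars for 1 SE) of the 9 members in the 6 pairwise comparisons, each from the fit over all 8 libraries, filled where the adjusted p was under 0.05. Filled points lie on both sides of 0 in the comparisons of KO-labelled with WT- and SmoM2-labelled libraries and only below 0 in those of Het-labelled with WT- and SmoM2-labelled libraries.

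Counted by comparison, 4 of 9 members were called in KO- against WT-labelled libraries, with Mycn and Max higher and Mxd4 and Mnt lower, where 23.0% of all tested genes were called. In Het- against WT-labelled libraries 3 were called (Mycl, Mxd4 and Mxi1), all lower, beside 25.3% of all genes, of which 12.2% were lower. KO- against SmoM2-labelled libraries gave 8 (3 higher, 5 lower) beside 32.5%, and Het- against SmoM2-labelled libraries gave 4, all lower, beside 33.7%. Between SmoM2- and WT-labelled libraries edgeR called 0 members, as did DESeq2, and 1 had an unadjusted p under 0.05, where 0.223% of all genes were called (0.156% higher and 0.0669% lower). KO- against Het-labelled libraries likewise gave 0 by edgeR and by DESeq2 with 6 at an unadjusted p under 0.05, beside 9.43% of all genes (4.33% higher and 5.10% lower). The comparisons share libraries and are not independent. The median log2 change of the members in KO- against WT-labelled libraries was -0.31, against 0.03 over all tested genes.

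Libraries of KO- and WT-labelled groups did not overlap in 7 of the 9 members, where 62.0% of all tested genes did not overlap. For Het- against WT-labelled libraries it was 6 of 9 beside 66.9%, for KO- against SmoM2-labelled libraries 8 of 9 beside 67.1% and for Het- against SmoM2-labelled libraries 7 of 9 beside 70.9%. For KO- against Het-labelled libraries it was 8 of 9 beside 56.9%, and for SmoM2- against WT-labelled libraries 3 of 9 (Myc, Mxd4 and Mxi1) beside 35.8%. The group means of Mxd1 and Mnt increased in the order KO, Het, WT and SmoM2, as in 10.8% of tested genes, and those of Mycn and Mxd3 decreased, as in 9.91%.

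Summed over the 5 antagonists, the RPKM level was 97.2 ± 4.34 in KO-, 91.6 ± 11.1 in Het-, 130.0 ± 10.1 in WT- and 144 ± 4.33 in SmoM2-labelled libraries (SD, n = 2). Mxd4, part of whose count is uncertain, made up 42.4 ± 2.15% of this sum in KO- and 49.2 ± 0.70% in WT-labelled libraries. Mxd3 went the other way, at 18.0 RPKM in KO- and 12.3 RPKM in WT-labelled libraries. Divided by the summed Myc paralogues, the sum of the antagonists was 1.41 and 1.10 in the KO- and 2.02 and 1.18 in the Het-labelled libraries. The ratio was 1.77 and 3.27 in the WT- and 1.89 and 2.22 in the SmoM2-labelled libraries. KO-labelled libraries were thus below WT- and SmoM2-labelled ones, while the Het-labelled libraries overlapped both sides. The paralogues divided by Max overlapped between KO- (2.33 and 2.49) and WT-labelled libraries (2.90 and 2.09).

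The genes with the most similar pattern were found by Pearson's r of log2 CPM over the 8 libraries, as a description without a test, since the 4 groups shape every such r. Mnt was most like Phc1 (r 0.996), a Polycomb gene, followed by Fmnl2 and Kif5b. Mxi1 was most like Ogfrl1 (0.990), with Sesn1 also near, and Mxd4 was most like Gfpt2 (0.985), Copg1 and Blm. Max was nearest to Dab1 (0.979), Snx1 and Pyurf, and Mxd3 to Gt(ROSA)26Sor (0.983), Ptges3 and Nme4. Gt(ROSA)26Sor is the locus of the SmoM2 allele in the SmoM2-labelled group, and the part of that allele in its level was not tested. Mycl was nearest to Morn4 (0.976), Rsl24d1 and Sept2. The nearest to Mycn were Pacrgl (0.956), Ddx20 and Ttc23, and the nearest to Myc were Zfp217 (0.927), Ddit4l and Rgma.

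Genes around the members were read from lists of known function. Of 65 genes that Myc proteins are known to raise, 20 were called higher in KO- than in WT-labelled libraries (30.8%, beside 11.6% of all tested genes) and 1 was lower (1.54%, beside 11.4%). In Het- against WT-labelled libraries 18 were higher (27.7%, beside 13.1%) and 3 lower (4.62%, beside 12.2%). Between SmoM2- and WT-labelled libraries edgeR called none of them, where only 0.156% of all tested genes were higher and 0.0669% lower. The median log2 change was 0.26 in KO- and 0.13 in Het- against WT-labelled libraries, beside 0.03 and -0.02 over all tested genes. Both counts of higher genes depended on covariates and on single libraries, and the medians on libraries. Of the fits without 1 library, each count fell furthest without replicate 1 of its own group. In Het-labelled libraries the share called higher then lay close to that of all tested genes. With the stress score as a covariate 2 were higher and 2 lower in KO-labelled libraries, beside 3.82% and 4.31% of all tested genes. In Het-labelled ones none was called, beside 0.438% of all tested genes higher and 0.245% lower, and the median was -0.32. Without WT-labelled replicate 1 the median was 0.16 in KO- and -0.02 in Het-labelled libraries. It was 0.34 and 0.24 without WT-labelled replicate 2. Without KO-labelled replicate 1 and replicate 2 the median in KO-labelled libraries was 0.34 and 0.23. Without Het-labelled replicate 1 and replicate 2 the median in Het-labelled libraries was 0.05 and 0.15. With sex as a covariate, estimated from the WT- and SmoM2-labelled pairs only, 28 were higher and 1 lower in KO-labelled libraries (median 0.43). These stood beside 12.0% and 10.8% of all tested genes. In Het-labelled libraries the same fit gave 15 higher and 11 lower (median 0.04), beside 13.6% and 12.8%.

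Of 28 ribosome biogenesis genes, 7 were higher and none lower in KO- against WT-labelled libraries. Grwd1, a ribosome assembly chaperone, was at 89.8 ± 1.87 CPM in KO-, 90.5 ± 7.48 in Het-, 58.8 ± 1.56 in WT- and 56.9 ± 1.08 CPM in SmoM2-labelled libraries. Rrp9, a protein of ribosomal RNA processing, rose by 0.68 in KO- and 0.61 in Het-labelled libraries on the log2 scale (edgeR adjusted p 0.00453 and 0.00690). Npm1, a nucleolar chaperone, fell in the Het-labelled libraries (log2 -0.71, SE 0.13, edgeR adjusted p 0.00314) and was at -0.20 in KO- against WT-labelled libraries (adjusted p 0.291). Rrp12 rose in the Het-labelled libraries by 0.55 (edgeR adjusted p 0.00944).

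Of 23 metabolic targets, 7 were higher and 1 lower in KO- against WT-labelled libraries, and 8 and 1 in Het- against WT-labelled libraries. Phb, a mitochondrial membrane protein, was at 158 ± 1.06 CPM in KO- and 147 ± 6.24 in Het- beside 76.3 ± 5.89 CPM in WT-labelled libraries (edgeR adjusted p 0.000304 and 0.000499). Umps, an enzyme of pyrimidine synthesis, and Hk2, the first enzyme of glycolysis, rose by 0.89 and 1.11 in KO-labelled libraries. The exception was Slc7a5, an amino acid transporter, which fell by 1.42 on the log2 scale in KO- and by 1.41 in Het-labelled libraries (edgeR adjusted p 0.00338 and 0.00302).

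Of 14 cell cycle and translation targets, 6 were higher in KO- against WT-labelled libraries and none lower. Ccnd1, a cyclin of the entry into the cycle, was at 406 ± 64.3 CPM in KO-, 50.9 ± 30.5 in Het-, 103 ± 71.0 in WT- and 130.3 ± 41.4 CPM in SmoM2-labelled libraries. It is also a marker of early nephrons. Cks2, E2f1 and E2f3, which act in the cell cycle, rose by 0.75, 0.68 and 0.52 on the log2 scale. Of 7 proliferation genes outside these lists, 2 were called higher in KO-labelled libraries and none lower, beside 11.6% and 11.4% of all tested genes.

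Of 7 genes that Myc proteins are known to lower, 2 were higher in KO- against WT-labelled libraries and none lower. Over all tested genes 11.6% were higher and 11.4% lower. Cdkn1c, a cyclin kinase inhibitor, was at 328 ± 24.9 CPM in KO-, 364 ± 122 in Het- and 164 ± 46.4 CPM in WT-labelled libraries (edgeR adjusted p 0.00967 and 0.00430). Ndrg1, a gene of growth arrest and low oxygen, rose by 1.06 in KO-labelled libraries (SE 0.25, edgeR adjusted p 0.0124). Cdkn1a, a further inhibitor, fell by 1.71 in Het-labelled libraries (edgeR adjusted p 0.0111) and was at -1.03 in KO-labelled ones (adjusted p 0.0837).

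Of 4 genes of the extended network, 1 was higher and 2 lower in KO- against WT-labelled libraries. Mlxip, which pairs with Mlx to sense glucose, fell by 0.53 (SE 0.12, edgeR adjusted p 0.0100), and Mlxipl, its relative, rose by 1.01 (adjusted p 0.0449). Of 16 cofactors, 2 were higher and 4 lower, beside 11.6% and 11.4% of all tested genes. Hcfc1 and Trrap, which help Myc bind and activate its targets, fell by 0.78 and 0.59, while Ruvbl2 rose by 0.46 and Kat2a, an acetyltransferase, was called in Het-labelled libraries (0.58, edgeR adjusted p 0.00443).

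Of 13 tested regulators of Myc protein stability, 5 were higher and 2 lower in KO- against WT-labelled libraries. These counts stood beside 11.6% and 11.4% of all tested genes. Gsk3b, a kinase that marks Myc proteins for breakdown, was at 136 ± 14.2 CPM in KO-, 209 ± 29.1 in Het-, 242 ± 49.6 in WT- and 274 ± 23.7 CPM in SmoM2-labelled libraries. It fell by 0.83 in KO-labelled libraries (SE 0.16, edgeR adjusted p 0.00518). Gsk3a, the related kinase, rose by 0.39 (edgeR adjusted p 0.0312). Plk1 and Aurka, mitotic kinases known to stabilise N-Myc protein, rose by 0.72 and 0.51 (edgeR adjusted p 0.00987 and 0.0406).

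Of 11 tested regulators of Myc transcripts, 2 were higher and 1 lower in KO- and 3 higher and 4 lower in Het- against WT-labelled libraries. Over all tested genes the shares were 11.6% and 11.4% in KO- and 13.1% and 12.2% in Het-labelled libraries. Zfp36 and Zfp36l1, which promote decay of AU-rich messages, rose by 1.10 and 0.48 in KO- and by 1.54 and 0.78 in Het-labelled libraries on the log2 scale. Zfp36 is itself an immediate early gene, and 9 dissociation genes had 4 called higher in KO- and 6 in Het- against WT-labelled libraries. Hnrnpd, which also binds such messages, fell by 0.49 in the Het-labelled libraries (edgeR adjusted p 0.0243), where Igf2bp2, an RNA-binding protein, rose by 0.43 (adjusted p 0.0224).

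**Figure D5:**
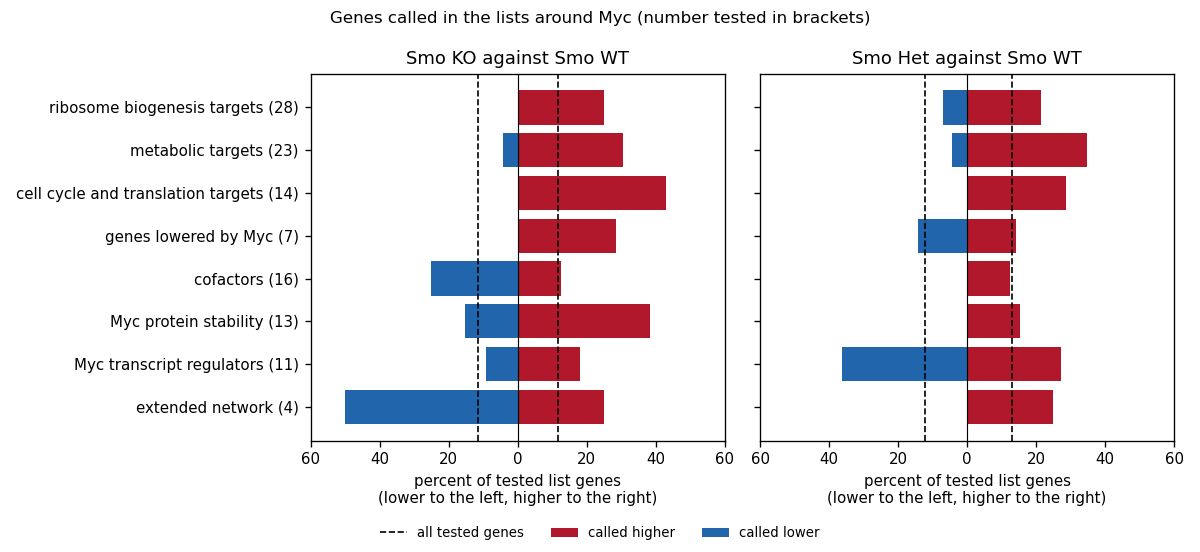
Share of the tested genes of each list called higher (red, to the right) or lower (blue, to the left) in KO- against WT-labelled (left) and Het- against WT-labelled libraries (right), in percent, with dashed lines at the shares of all 13459 tested genes. The 3 lists of genes that Myc proteins raise lie beyond the dashed line on the higher side in both comparisons and short of it on the lower side, in the fit without covariates and with all libraries.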

How the data were processed

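Gene counts and RPKM values for 8 libraries of sorted mouse nephron progenitors were taken from the authors' deposited table. Per the file headers it holds raw counts, RPKM and gene lengths, and the submitters' processing notes name STAR, featureCounts, Subread and mm10; the strand setting is not given in the sources used here. Differences in the deposited counts were fitted by edgeR 4.0.16 under R 4.3.3 (low-count filter, TMM scaling, 1 mean per group over all 8 libraries, quasi-likelihood F test, Benjamini-Hochberg adjustment over 13459 genes, threshold 0.05). SE is the log2 change over the root of F. CPM uses the scaled library sizes. The authors' RPKM values served only for levels and ratios. Total counts ranged from 4422305 to 10305398. Named list genes were up to 4 per pathway list, those with the smallest adjusted p over all 4 groups, and the 3 most similar genes were named for each member called there, except 1 that is not reported here. The members and lists were chosen with earlier results of these data known. Alternatives included DESeq2 1.42.0, other scalings, covariates and each library left out. Promoters came from RefSeq and coordinates from GENCODE M21.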

Additional observations from a re-analysis of the deposited data

How the results depend on the processing

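No call of a member reversed its direction in any alternative run. The main counts of called genes were 3100 for KO- against WT-labelled libraries, 3402 for Het- against WT-, 30 for SmoM2- against WT-, 1269 for KO- against Het-, 4373 for KO- against SmoM2-, 4529 for Het- against SmoM2-labelled libraries and 5514 over the 4 groups. With a stress score as a covariate, which differs between the groups, they were 1094, 92, 8 and 381 for the first 4 and 1920 for Het- against SmoM2-labelled libraries. With length trends removed, KO- against WT-labelled libraries gave 2055 and KO- against Het-labelled ones 634. Without the low-count filter, KO- against Het-labelled libraries gave 2217 and SmoM2- against WT-labelled ones 356. The latter gave 8 with only the groups compared, 54 with sex as a covariate and 82 by DESeq2. The cause was not tested. Leaving out each library gave 1305 to 2924, 1411 to 3616, 8 to 81, 36 to 1472, 2423 to 4439, 2407 to 4732 and 3656 to 5510 genes, in the order above, and the 36 came without Het-labelled replicate 1. With the totals implied by RPKM, the share of higher calls went from 45.9% to 64.7% for KO- against Het-, from 50.7% to 62.8% for KO- against SmoM2- and from 70% to 59.3% for SmoM2- against WT-labelled libraries. Without the low-count filter the last share was 57.5%, and with length trends removed the share for KO- against Het-labelled libraries was 32.8%.

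With the replicate number as a block, SmoM2- against WT-labelled libraries gave 54 called genes and no member's call was lost. Deviations of same-numbered libraries, across 13459 genes, correlated at 0.39 between the WT- and SmoM2-labelled groups. For the other pairs of groups the correlation was -0.06 to 0.10. In the WT- and SmoM2-labelled groups only replicate 1 had Y-linked counts, so replicate number and sex cannot be told apart there. The numbers were not taken to pair the libraries. Mycl, with 16 to 79 counts per library, is the member whose values depth limits most.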
